A study of Mus musculus with 7 samples.

Results

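The Meis and Pbx genes encode homeodomain proteins of the TALE class that act as partners of HOX proteins. Here 6 genes of these families, though not all of them, were examined, Meis1, Meis2, Meis3, Pbx2, Pbx3 and Pbx4, picked by symbol among the 27179 genes of the count table. The values are read counts per gene from chromatin immunoprecipitation and sequencing (ChIP-seq) with an anti-V5 antibody. The tissue was the first and second pharyngeal arches, the embryonic swellings that give rise to jaw and middle ear structures, from C57BL/6 mouse embryos at E10.5. The tagged group had 3 ChIP libraries (V5 libraries) from embryos whose Moz locus, also called Kat6a, carried a Flag-V5-BIO tag in frame at its C-terminus on both copies. The control group had 3 ChIP libraries from wild-type embryos (WT libraries), which have no V5 epitope and went through the same immunoprecipitation. A single input library came from tagged arches with no antibody, and no input of wild-type arches was analysed here. The comparison of V5 with WT asks whether the acetyltransferase MOZ was found over these genes, as the design names the wild-type arches as the negative control. Read counts of genomic DNA carry no marker of cell type, so the labelled tissue could not be checked from them.

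PBX proteins bind DNA together with HOX proteins and sharpen the choice of HOX target sites. MEIS proteins bind PBX through their N-terminal part, hold PBX in the nucleus and bind DNA beside it. In the mouse head, Meis2 is needed in cranial neural crest, the cell population that builds much of the facial skeleton. MOZ, a histone acetyltransferase of the MYST family, is needed for normal expression of Hox genes in the mouse embryo.

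The libraries held 806648, 1138431 and 3286602 counts in V5 replicates 1 to 3, against 1288732, 1327452 and 2504595 in WT replicates 1 to 3. The input held 3488745. Levels are given as CPM, the counts of a gene per 1000000 counts of its library, and 1 count was worth 1.24 CPM in V5 replicate 1 and 0.304 CPM in V5 replicate 3. WT replicate 2 stood apart in chromosome X genes, which took 2.77% of its counts, against 3.94% to 4.51% in the other 6 libraries, and all 6 Meis and Pbx genes studied lie on autosomes. Whether a replicate is a separate embryo, litter or pool is not in the labels, and the p-values reflect library-to-library spread that could be technical.

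None of the 6 genes was called different between V5 and WT. Of the 6 genes, 5 had enough counts for the gene-level test and 0 passed at an adjusted p of 0.05 (edgeR's quasi-likelihood test with Benjamini-Hochberg adjustment over 14575 genes). The background was the same, 0% of all genes tested. At an unadjusted p under 0.05 there were 0 of the 5 in either direction, where 2.74% of all genes were higher and 1.38% lower in V5. DESeq2 and limma-voom also called 0 of the 5. Of these genes 3 had a positive log2 fold change (52% of all genes tested) and 2 a negative one. Their median was 0.075, against 0.020 over all genes tested. In all 6 genes the V5 and WT libraries overlapped, while among all genes tested 4.83% had every V5 library above every WT library and 5.27% had every one below.

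**Figure D1:**
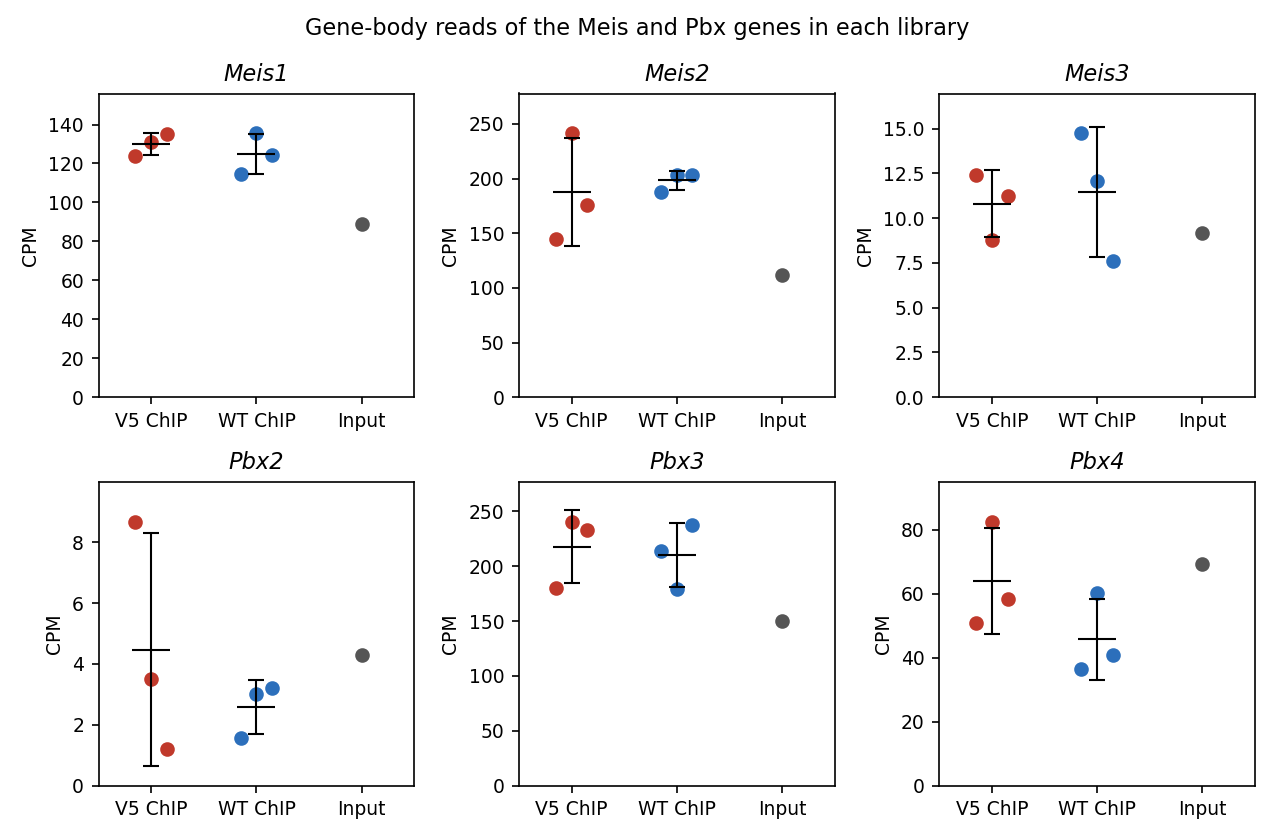
Reads of each gene in CPM (vertical axis, starting at 0) in V5 ChIP, WT ChIP and input libraries; each point is 1 library, with replicates 1 to 3 from left to right, and bars give the mean and SD of 3 libraries. V5 and WT points overlap in every panel, and the input lies below all ChIP libraries in Meis1, Meis2 and Pbx3.

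Among the Meis genes, Meis1 is a HOX cofactor needed for blood formation and the heart in the mouse. It lies on chromosome 11, 18880428 to 19019651 in mm10 (GeneID 17268), and its deposited length of 138542 bp is 99.5% of that span, so its introns were counted. It overlaps the lncRNA gene Gm16141, which has no row in the count table. Meis1 had 100, 149 and 444 counts in V5 libraries 1 to 3, against 148, 180 and 311 in WT libraries 1 to 3 and 311 in the input. In CPM these were 124, 131 and 135 in V5, against 115, 136 and 124 in WT and 89.1 in the input. The V5 libraries lay inside the WT range. Meis1 averaged 130 ± 5.62 CPM in V5 and 125 ± 10.4 CPM in WT (SD, n = 3 each). The log2 fold change of Meis1 was 0.086 (SE 0.23, 95% interval -0.38 to 0.56, edgeR adjusted p = 0.993). Its V5 libraries differed by a coefficient of variation of 4.32%, where counting alone would give 7.95%.

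Meis2 lies on chromosome 2, 115861264 to 116067537 (GeneID 17536), and its deposited length is 203795 bp. The lncRNA gene G630016G05Rik overlaps it and has no row in the count table. Its counts were 117, 275 and 578 in V5, against 242, 270 and 510 in WT and 389 in the input. That was 145, 242 and 176 CPM in V5, against 188, 203 and 204 CPM in WT and 112 CPM in the input. The 3 WT libraries were close together, and the V5 libraries lay on both sides of them, with replicates 1 and 3 below and replicate 2 above. Meis2 averaged 187 ± 49.3 CPM in V5 and 198 ± 9.08 CPM in WT (SD, n = 3 each). The coefficient of variation was 26.3% in V5 and 4.58% in WT, where counting alone would give 6.81% and 5.71%. For Meis2 the log2 fold change was -0.058 (SE 0.20, 95% interval -0.48 to 0.37, edgeR adjusted p = 0.997). Its sign was not stable, at 0.040 without V5 replicate 1 and 0.016 without V5 replicate 3.

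Meis3, which is known for patterning of the hindbrain in frog and zebrafish embryos, is short and had few counts. It lies on chromosome 7, 16174012 to 16186510 (GeneID 17537), with a deposited length of 11125 bp. Its counts were 10, 10 and 37 in V5 and 19, 16 and 19 in WT, with 32 in the input, or 12.4, 8.78 and 11.3 CPM in V5, 14.7, 12.1 and 7.59 CPM in WT and 9.17 CPM in the input. All V5 values fell inside the WT range. The log2 fold change, -0.045 with SE 0.72 (adjusted p = 0.999 in edgeR), had a wide 95% interval at this depth, from -1.53 to 1.44. Differences inside that interval were not excluded, and it is not a detection limit, since larger ones could also miss the adjusted threshold. The sign turned under 4 alternatives, 0.17 without WT replicate 1 being the highest value.

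Among the Pbx genes, Pbx3 is needed at birth for breathing control in the mouse. It lies on chromosome 2, 34171457 to 34372045 (GeneID 18516), with a deposited length of 200128 bp, and had the most reads of the 6 genes. Its counts were 145, 274 and 766 in V5, against 276, 238 and 595 in WT and 525 in the input. In CPM it had 180, 241 and 233 in V5, 214, 179 and 238 in WT and 150.5 in the input. The ranges of the groups nearly coincided. Pbx3 averaged 218 ± 33.2 CPM in V5 and 210.3 ± 29.3 CPM in WT (SD, n = 3 each). The log2 fold change of Pbx3 was 0.075 (SE 0.19, 95% interval -0.32 to 0.47, edgeR adjusted p = 0.992), and it was -0.033 without WT replicate 2.

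Pbx4, whose expression is best known from the mouse testis, had the largest fold change of the 5 tested genes. It lies on chromosome 8, 69832476 to 69872292 (GeneID 80720), with a deposited length of 39589 bp, on the chromosome that also holds the tagged locus. The V5 libraries held 41, 94 and 192 Pbx4 counts, the WT libraries 47, 80 and 102, and the input 242. That was 50.8, 82.6 and 58.4 CPM in V5, against 36.5, 60.3 and 40.7 CPM in WT and 69.4 CPM in the input. WT replicate 2 lay above V5 replicates 1 and 3, and V5 replicate 2 was the only ChIP library above the input. Pbx4 averaged 63.9 ± 16.6 CPM in V5 and 45.8 ± 12.7 CPM in WT (SD, n = 3 each). The fold change of V5 over WT was 0.51 on the log2 scale (SE 0.36, 95% interval -0.24 to 1.25, edgeR adjusted p = 0.980), higher than in 82.5% of all genes tested. It ranged from 0.29 without V5 replicate 2 to 0.74 without WT replicate 2.

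Pbx2, whose loss alone leaves mice viable, was below the filter on low counts and did not enter the gene-level test of the other 5 genes. It lies on chromosome 17, 34592259 to 34597400 (GeneID 18515), with a deposited length of 4871 bp. The V5 libraries held 7, 4 and 4 Pbx2 counts, the WT libraries 2, 4 and 8, and the input 15. The CPM values were 8.68, 3.51 and 1.22 in V5, against 1.55, 3.01 and 3.19 in WT and 4.30 in the input. V5 replicate 1, the shallowest library, was highest and V5 replicate 3, the deepest ChIP library, was lowest. The ratio of mean CPM was 1.73 on the linear scale, 0.79 on the log2 scale (two-sided exact permutation p = 0.6, n = 3 each, where 0.1 is the smallest p possible). Without V5 replicate 1 the log2 ratio was -0.13. With no filter on low counts, edgeR gave Pbx2 a log2 fold change of V5 over WT of 0.72 (SE 1.37, adjusted p = 0.994 over 24447 genes).

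**Figure D2:**
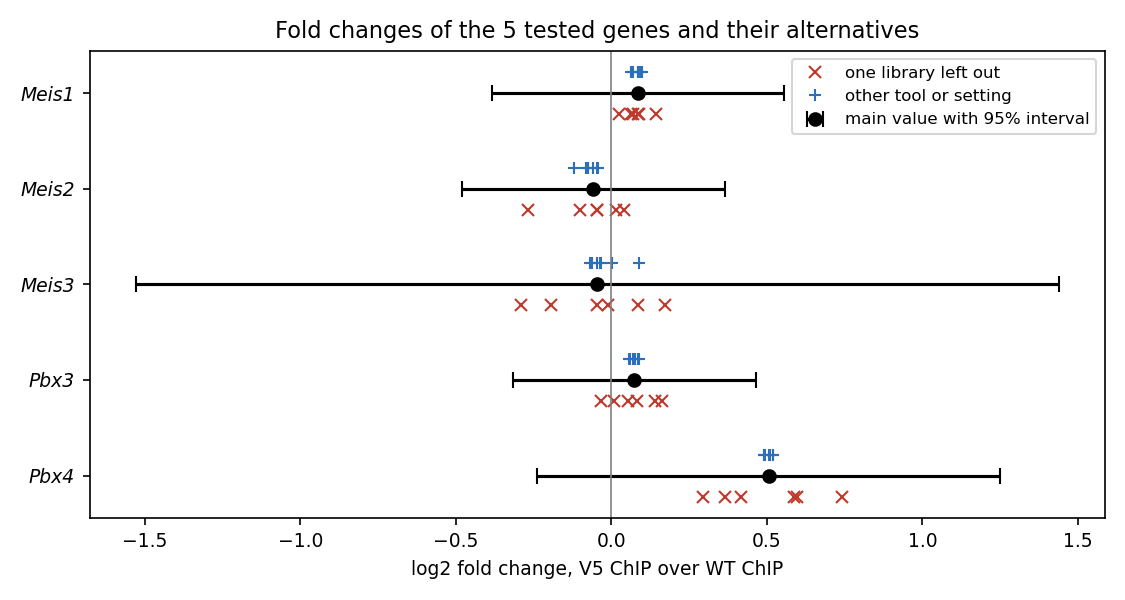
Log2 fold change of V5 over WT (horizontal axis) for the 5 genes in the gene-level test. Black points are the edgeR values with 95% intervals, red crosses leave out 1 ChIP library each, and blue plus signs use another tool, scaling, filter or replicate block. Every interval spans 0, Meis3 has the widest, and all Pbx4 values are positive, from 0.29 to 0.74.

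Levels of different genes were compared as CPM per kb of deposited length, where the average over all genes was 0.977. In the V5 libraries Pbx4 had the highest density, 1.62 ± 0.419 CPM per kb. Pbx3 followed with 1.09 ± 0.166, Meis3 with 0.972 ± 0.166, Meis1 with 0.938 ± 0.0405, Meis2 with 0.920 ± 0.242 and Pbx2 with 0.918 ± 0.784 (SD, n = 3). Below Pbx4, neighbours in this order differed by less than the spread between libraries. In the WT libraries Pbx4 had 1.16 ± 0.321 CPM per kb, Pbx3 1.05 ± 0.147, Meis3 1.03 ± 0.325, Meis2 0.973 ± 0.0446, Meis1 0.901 ± 0.0750 and Pbx2 0.531 ± 0.185 (SD, n = 3). There Pbx2 stood below its neighbour Meis1 by more than either SD, and the other neighbours differed by less than the larger SD of each pair. Meis2 differed from both of its neighbours by more than its own SD. The input spread the genes further, with 1.75 CPM per kb in Pbx4 and 0.883 in Pbx2, 0.824 in Meis3, 0.752 in Pbx3, 0.643 in Meis1 and 0.547 in Meis2. Together the 6 genes held 521, 708 and 615 CPM in V5 libraries 1 to 3, against 569.6, 594 and 617 CPM in WT and 434 CPM in the input. Their sum averaged 615 ± 93.7 CPM in V5 and 593 ± 23.7 CPM in WT (SD, n = 3 each), a ratio of 1.04.

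**Figure D3:**
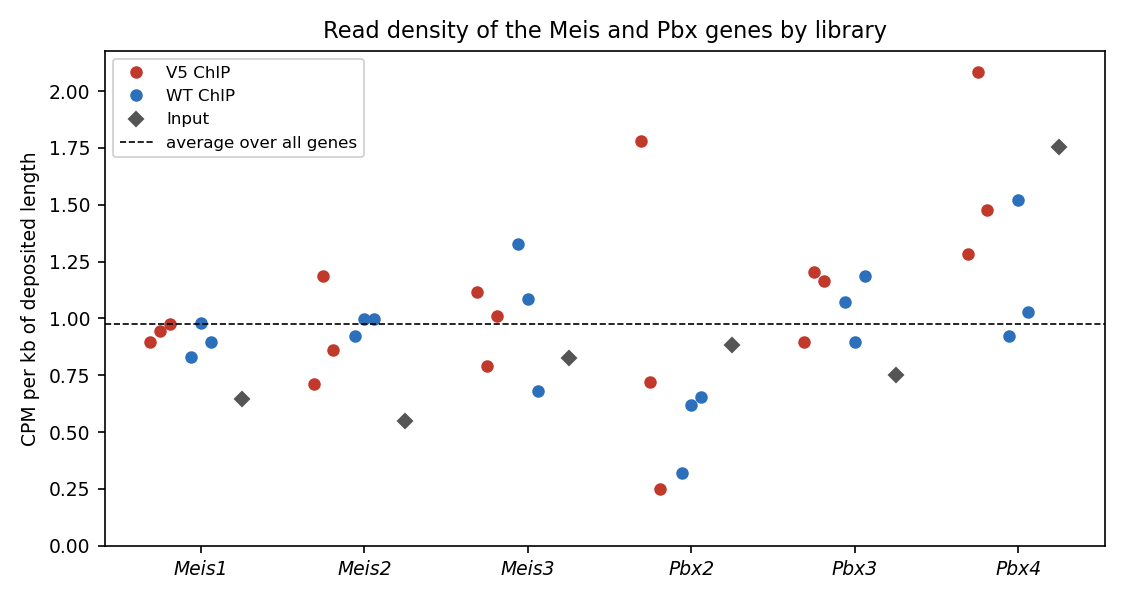
Read density in CPM per kb of deposited gene length (vertical axis, starting at 0) for the 6 genes; red points are V5 libraries, blue points WT libraries and grey diamonds the input, with replicates from left to right. The dashed line is the average over all genes, 0.977. Meis1, Meis2 and Pbx3 have the input below every ChIP library, and Pbx4 has it above all but 1.

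Against the input the long genes Meis1, Meis2 and Pbx3 were higher in both V5 and WT, while Pbx4 was lower in WT and near the input in V5. Both comparisons share the single input, so its counting error enters each of them and no test was made. The log2 ratio of mean CPM to the input was 0.54 in V5 and 0.49 in WT for Meis1, 0.75 in V5 and 0.83 in WT for Meis2, and 0.53 in V5 and 0.48 in WT for Pbx3. In these 3 genes all 6 ChIP libraries were above the input, as in 11.6% of the 16736 genes with at least 70 counts. That share covers genes of all lengths and was not computed for genes as long as these 3. Among genes of 100 to 300 kb the ratio of mean CPM was above the input in 64.4% in V5 and 68.6% in WT, against 51.2% and 49.4% of all. The input values have exact 95% Poisson intervals, for counting error only, of 79.5 to 99.6 CPM in Meis1, 101 to 123 in Meis2 and 138 to 164 in Pbx3. Every ChIP library lay above these bounds. The ratio of Meis2 exceeded that of 85.6% of those genes in V5 and 90.7% in WT.

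Long genes as a class had raised ratios too. Genes of 100 to 300 kb, the class of Meis1, Meis2 and Pbx3, had a median log2 ratio to the input of 0.19 in V5 and 0.19 in WT, against 0.022 in V5 and -0.010 in WT over all 16736 genes. Within its class Meis2 stood at percentile 92.1 in V5 and 94.6 in WT. Meis1 stood at percentile 80.4 in V5 and 77.0 in WT, and Pbx3 at 79.7 in V5 and 76.8 in WT. Pbx4 had a log2 ratio to the input of -0.12 in V5 and -0.60 in WT. The V5 ratio of Pbx4 was 0.023 without V5 replicate 1 and -0.34 without V5 replicate 2, so its sign was not stable. All 3 WT libraries were below the input in Pbx4, as in 29.6% of genes, and 2 of 3 V5 libraries were. Its input interval of 60.9 to 78.7 CPM did not reach the WT libraries at 36.5, 40.7 and 60.3 CPM. Meis3 stood at 0.23 in V5 and 0.31 in WT, with ChIP libraries on both sides of the input in each group. Pbx2 had too few counts for this comparison, with 44 in all 7 libraries.

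**Figure D4:**
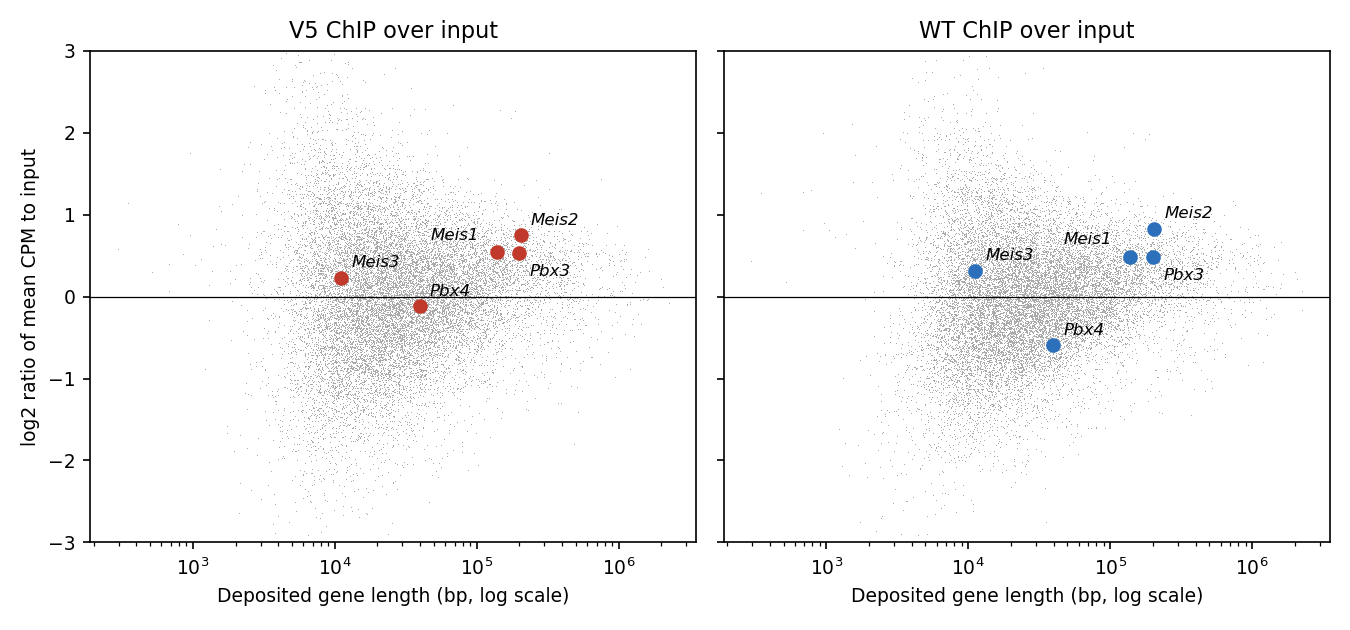
Log2 ratio of mean ChIP CPM to input CPM (vertical axis) against deposited gene length in bp (horizontal log axis), for V5 on the left and WT on the right. Grey points are the 16736 genes with at least 70 counts, those beyond 3 on the log2 scale being off the axis, and coloured points are the 5 Meis and Pbx genes among them. Meis1, Meis2 and Pbx3 lie above 0 in both panels and Pbx4 below 0.

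The sequences around the starts of 3 genes are shown because they mark the ends of the range among the 6 genes examined. Meis2 had the highest ratio to the input, Pbx4 the largest fold change of V5 over WT among the tested genes, and Pbx2 the fewest reads. The sequences are from RefSeq on GRCm38.p6, the assembly behind mm10, cover 250 bases before and 50 after an annotated start, and run 5′ to 3′ on the gene's strand. The capitals mark CpG dinucleotides, the main sites of DNA methylation in mammals. Meis2 is at chr2:116064570-116064869 (minus strand, inside the gene's annotated span), Pbx4 at chr8:69832374-69832673 (plus strand) and Pbx2 at chr17:34592009-34592308 (plus strand).
Meis2: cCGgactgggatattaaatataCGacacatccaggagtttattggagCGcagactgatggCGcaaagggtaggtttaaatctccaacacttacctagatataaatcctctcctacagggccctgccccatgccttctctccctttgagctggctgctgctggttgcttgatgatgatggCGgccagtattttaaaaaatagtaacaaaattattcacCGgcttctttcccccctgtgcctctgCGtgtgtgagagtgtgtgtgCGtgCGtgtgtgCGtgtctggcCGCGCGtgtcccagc
Pbx4: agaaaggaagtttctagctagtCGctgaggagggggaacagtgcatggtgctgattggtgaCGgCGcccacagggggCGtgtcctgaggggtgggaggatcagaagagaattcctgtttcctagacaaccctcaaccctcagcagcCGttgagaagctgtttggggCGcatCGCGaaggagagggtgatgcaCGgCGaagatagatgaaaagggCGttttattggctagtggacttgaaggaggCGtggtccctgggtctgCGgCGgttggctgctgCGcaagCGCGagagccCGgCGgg
Pbx2: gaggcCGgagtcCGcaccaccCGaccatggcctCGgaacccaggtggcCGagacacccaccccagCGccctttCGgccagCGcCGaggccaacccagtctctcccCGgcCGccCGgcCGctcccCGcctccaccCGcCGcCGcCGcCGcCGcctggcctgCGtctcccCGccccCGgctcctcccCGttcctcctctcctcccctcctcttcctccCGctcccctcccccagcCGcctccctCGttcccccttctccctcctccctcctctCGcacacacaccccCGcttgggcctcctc
The Meis2 window held 13 CpG and 51.0% G and C, the Pbx4 window 19 CpG and 59.3%, and the Pbx2 window 29 CpG and 76.0%. The median over the 32851 promoters of the table was 7 CpG and 52.7% G and C. The windows of Meis1, with 15 CpG, and Meis3, with 21 CpG, lay in between. These windows are a small part of each gene, and the counts do not measure them apart from the gene body.

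Motif letters were searched on both strands in the 5 windows that matched. TGACAG, the core bound by MEIS proteins, was in 0 of 5 and in 19.2% of all promoters. TGATTNAT, a joint PBX and HOX site, was in 0 of 5 and in 3.22% of all promoters. CCAAT, bound by the general factor NF-Y, was in 3 of 5, once each in Meis1 and Meis2 and at 2 places in Pbx4, and in 37.4% of all promoters. No window held more than 1 of these motifs, so no matches overlapped between motifs.

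Of the other TALE homeobox genes, the PREP genes Pknox1 and Pknox2, Tgif1, Tgif2, Mkx and the 6 Irx genes, 5 of 11 were tested and 0 passed. Of these 2 had a positive log2 fold change and 3 a negative one, with a median of -0.021 beside 0.020 over all genes tested. For Irx3, an Iroquois gene, the V5 libraries held 14, 9 and 29 counts, the WT libraries 2, 1 and 14, and the input 45. Every V5 library of Irx3 was above every WT library in CPM, as in 4.83% of all genes tested. The CPM values of Irx3 were 17.4, 7.91 and 8.82 in V5, 1.55, 0.753 and 5.59 in WT and 12.9 in the input. V5 replicates 2 and 3 were thus below the input. The difference of V5 from WT was 1.98 on the log2 scale (SE 0.93, unadjusted p = 0.0439, edgeR adjusted p = 0.980). It was 1.52 without V5 replicate 1 (unadjusted p = 0.182 in edgeR) and 3.23 without WT replicate 3. Tgif2, a corepressor of TGF-beta signalling, stood at -0.26 (SE 0.77), an uncertain value since it overlaps another gene of the table. Mkx, a tendon regulator, stood at 0.052 (SE 0.36).

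Of the HOX genes of paralog groups 1 to 4, which are partners of MEIS and PBX, 4 of 12 were tested, 2 were positive and 0 passed. Their median log2 fold change was 0.15, beside 0.020 over all genes tested, of which 52% were positive. Hoxd3 stood at 0.88 (SE 0.55), Hoxb4 at -0.82 (SE 0.92) and Hoxa3 at 0.35 (SE 0.53), and edgeR's adjusted p was 0.980 to 0.988 in these 3 genes. Each of them overlaps at least 1 other gene of the count table, so their counts are uncertain. Hoxd3 was 0.41 without V5 replicate 1 and 0.19 with limma-voom. Of the other partners and cofactors, 7 of 10 were tested, 6 were positive with a median of 0.47, and 0 passed. The same 52% and 0.020 over all genes tested stand beside these values. En1, a homeobox gene whose protein binds DNA with PBX, stood at 1.47 (SE 0.76), and the deacetylase gene Hdac1 at 0.47 (SE 0.50).

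The genes most like each member were those with the highest Pearson correlation of log2 CPM over the 7 libraries, among 14575 genes tested. With 7 libraries and a single input among them, the values are a description. They are the highest of 14575 correlations for each member, so the search alone can give high values, and none was tested. Tshz1 (r = 0.985) and Csrnp3 (r = 0.971) were closest to Meis1, and Gm8579 (r = 0.996) and Nckap5 (r = 0.989) to Meis2. Pcdh12 (r = 0.987) and Arl6 (r = 0.968) were closest to Meis3, Slc20a2 (r = 0.974) and Cerkl (r = 0.972) to Pbx3, and Sntb2 (r = 0.973) and Kcnh3 (r = 0.972) to Pbx4. Among the members themselves Meis2 and Pbx3 stood at r = 0.804, Meis1 and Meis2 at 0.786 and Meis1 and Pbx3 at 0.657. The single input was the lowest library in Meis1, Meis2 and Pbx3, and correlations over the ChIP libraries alone were not computed. Pbx4 stood between -0.335 and -0.038 with the other 4 members compared. Meis3 stood at 0.168 with Meis1, -0.066 with Meis2 and -0.189 with Pbx3.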

How the data were processed

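The authors deposited raw read counts per gene, with a GeneID and a gene length in bases, per the file headers. Bcl2fastq, featureCounts and MACS, without versions, and the build mm10 are named in the submitters' processing notes. No aligner, duplicate filter or counting option is given in the sources used here. The 7 single-library tables held the same counts as the joint table, and 0 columns were without a sample. Even the most alike pair of libraries, V5 replicate 3 and WT replicate 3, differed beyond sampling noise (chi-square per degree of freedom 4.03). Each was thus counted as 1 replicate, though this cannot show that libraries of a group are independent. By the same measure V5 libraries differed more from each other (9.45 to 10.2) than WT libraries did (4.93 to 5.46). V5 replicate 3 was closer to the WT libraries (4.03 to 5.45) than to the other V5 libraries. Symbols, spans and promoters came from RefSeq GRCm38.p6.

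The V5 against WT test was edgeR 4.0.16 (R 4.3.3) without the input: low genes removed by filterByExpr at min.count 10, TMM scaling, robust glmQLFit, two-sided glmQLFTest and Benjamini-Hochberg adjustment over 14575 genes with a threshold of 0.05. Standard errors came from the F statistic. DESeq2 1.42.0 and limma 3.58.1 were alternatives. Ratios to the input used a prior count of 0.5. Members and lists were chosen with earlier results of these data known. Named genes are the 6 members, up to 3 genes of smallest p per list, the 2 genes most like each member with at least 100 counts, and neighbouring genes. One gene that this rule names is not reported here.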

Additional observations from a re-analysis of the deposited data

How the results depend on the processing

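Counting error and the spread between 3 libraries limit these results, and Meis3 and Pbx2 have the least depth. No tested member was called under any of the 13 alternatives, with adjusted p values from 0.626 to 1.00. The signs of 58 of 65 alternative fold changes of tested members were kept. With 1 library left out, signs turned in Meis2 (range -0.27 to 0.040, positive without V5 replicate 1 or 3), Meis3 (-0.29 to 0.17, positive without V5 replicate 2 or WT replicate 1), Pbx3 (-0.033, without WT replicate 2, to 0.16) and the log2 ratio of Pbx2 (-0.13, without V5 replicate 1, to 1.24). Meis3 was 0.090 with limma-voom and 0.0022 with the replicate block, which called 1 gene of all and none of the members. Libraries that share a replicate number had correlations of their deviations from the group means of 0.00530 to 0.0522, and the main test used no pairing. V5 replicates 1 and 2 correlated best with WT libraries of another number, and V5 replicate 3 with WT replicate 3 (0.0522). Counting error also lowers such correlations, so they cannot exclude pairing. Among other genes, leaving out 1 library gave ranges through 0 in Tgif2 (-0.79 to 0.17), Mkx (-0.16 to 0.42) and Hoxb4 (-1.40 to 0.45), and Hoxb4 was 0.17 with limma-voom. The other named list genes kept a positive sign, with leave-one-out ranges of 1.52 to 3.23 in Irx3, 0.41 to 1.32 in Hoxd3, 0.17 to 0.51 in Hoxa3, 1.03 to 1.91 in En1 and 0.11 to 0.82 in Hdac1. Over all genes the count of calls was 0, and 9 with no filter on low counts, 1 with limma-voom and 0 to 2 with 1 library left out. Ratios to the input and densities per kb moved by less than 1 SD under every alternative run. Leaving out 1 of 3 libraries cannot move their mean by 1 SD of those libraries. For densities that outcome was thus fixed beforehand, and for ratios nearly so. Without V5 replicate 1 the sign of the V5 ratio to the input turned in Pbx4 (0.023, and -0.12 with all libraries) and Pbx2 (-0.80, and 0.053 with all libraries). The cause of these changes was not tested.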

Other observations

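The density of Pbx4 relative to Meis2, both in CPM per kb, was 1.80, 1.76 and 1.71 in V5 libraries 1 to 3, against 1.00, 1.53 and 1.03 in WT libraries 1 to 3 and 3.20 in the input. The pair was chosen after the values were seen, so no test is given. The 3 V5 ratios were above the WT ratios, and all 6 ChIP libraries were below the input. In V5 replicate 1 the ratio rests on 41 Pbx4 and 117 Meis2 counts. How many of all gene pairs separate the groups in this way was not computed. For Pbx4 relative to Pbx3 the groups overlapped, at 1.43, 1.73 and 1.27 in V5, against 0.861, 1.70 and 0.867 in WT and 2.33 in the input. The groups also overlapped for Meis1 relative to Meis2 and for Pbx3 relative to Meis2. Depth cancels in these ratios.

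Genes next to the members were measured as well. BC052040, which ends 82490 bp before Meis2, had a log2 ratio to the input of 0.74 in V5 and 0.95 in WT, beside 0.75 in V5 and 0.83 in WT for Meis2. Mvb12b and Mapkap1, on either side of Pbx3, stood at 0.67 and 0.074 in V5 and at 0.58 and 0.33 in WT. Lpar2 and Cilp2, on either side of Pbx4, stood at -1.52 and -0.41 in V5 and at -0.49 and -0.99 in WT, all below the input. Pbx4 itself stood at -0.12 in V5, where its sign was not stable, and at -0.60 in WT. Cilp2 had a log2 fold change of V5 over WT of 0.62 (SE 0.72, edgeR adjusted p = 0.984). Lpar2 was not in the gene-level test and held only 1, 2 and 20 counts in V5 replicates 1 to 3. Its density was lower in V5, at 0.355 CPM per kb, than in WT, at 0.755. Of the genes beside Meis3, Slc8a2 stood below the input in both groups, at -0.31 in V5 and -0.61 in WT, while Meis3 stood above it, and Dhx34 stood at 0.38 in V5 and -0.028 in WT. Beside Meis1, Etaa1 stood at 1.03 in V5 and -0.035 in WT, and 4933406G16Rik at 0.36 in V5 and 0.61 in WT. Only V5 replicate 1, the shallowest library, carried the V5 value of Etaa1, at 65.7 CPM. V5 replicates 2 and 3 had 14.1 and 15.8 CPM of Etaa1, and the input 15.5 CPM. Whether neighbouring genes share a property that sets these ratios was not tested.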
